A study of Mus musculus with 12 samples.

Results

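Cholesterol synthesis and uptake genes were followed in the livers of 6 mice, as a set of 28 named genes among the 24910 genes and unmatched transcripts of the expression table. The set is a list of gene names with no threshold on a measured value, drawn up when earlier results of these data were known. It holds 18 synthesis enzymes, 4 regulators of the pathway (Srebf2, Insig1, Insig2 and Scap) and 6 genes that carry, export or otherwise handle sterol (Stard4, Npc1, Abcg5, Abcg8, Lbr and Mylip). All mice were wild-type C57BL/6J males. The VSG mice had a vertical sleeve gastrectomy, in which most of the stomach is removed and a narrow tube is left, and the Sham mice had a mock operation. Sham and VSG mice ate a high-fat diet from the age of 8 weeks, with surgery after 14 weeks on it and another 14 weeks on it before the livers were taken. The Control mice had no surgery and were kept on chow for 28 weeks. RNA-seq was done on 2 mice per group, and FAIRE-seq, which enriches open chromatin, was done on the same livers, with 1 peak list per group from 2 mice. The diet and the surgery differ together between Control and the other groups, so their parts in a difference from Control cannot be told apart.

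The liver makes cholesterol from acetyl-CoA through mevalonate, farnesyl diphosphate, squalene and lanosterol, and it also takes cholesterol up from blood and secretes it into bile. When sterol in the endoplasmic reticulum is low, SCAP escorts the transcription factor SREBP-2, the product of Srebf2, to the Golgi, where it is cleaved and set free to switch on the synthesis enzymes. When sterol is plentiful, the INSIG proteins hold SCAP back and the liver X receptors switch on export genes such as Abcg5 and Abcg8.

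Expression was given as FPKM, fragments per kilobase of transcript scaled to the mapped fragments of the library, which corrects for transcript length. The depth of each library was not in the table. The smallest steps of the low values put the relative depth, against Control mouse 1 at 1, between 0.674 in Sham mouse 1 and 1.56 in VSG mouse 1, with VSG mouse 2 at 0.920. Hepatocyte markers were high as a sum in every liver, at 16392 FPKM in Sham mouse 2 and 28161 to 34445 FPKM in the other mice. The sum ran over the 7 of 8 listed markers in the table, and Apoa1 and Apoa2 made up 80.3% to 90.3% of it. All 7 of these markers had a fitted change below 0 in Sham against Control, with a median of -0.99, and 6 of 7 were above 0 in VSG against Sham, with a median of 0.74. Among them, Hnf4a was listed at 0 in Sham mouse 1 and had its highest value, 73.3 FPKM, in Sham mouse 2. Its sign in both comparisons thus rests on that listed 0. Kupffer cell markers summed to 36.3 and 52.9 FPKM in Control mice, 128 and 136 FPKM in Sham mice, and 105 and 342 FPKM in VSG mice, so VSG mouse 2 stood apart on this list. In whole liver, fewer cells of a type and less RNA per cell cannot be told apart.

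Of the 28 members, 26 had a value above 0 and passed the filter of at least 1 FPKM in at least 2 mice. The remaining 2, Hmgcs1, which makes HMG-CoA at the entry of the pathway, and Stard4, a soluble sterol carrier, were listed at 0 in all 6 mice. A listed 0 can be a failed estimate, since 21 of 98 transcripts of ribosomal proteins, which every cell uses, were also listed at 0 in all 6 mice. Fdft1, squalene synthase, was listed at 0 in Sham mouse 1 and VSG mouse 2, with 24.7 and 13.2 FPKM in Control, 23.4 in Sham mouse 2 and 37.3 in VSG mouse 1. Dhcr7, which makes cholesterol in the last step of 1 branch, was listed at 0 in Sham mouse 2 and VSG mouse 1, with 18.2 and 10.6 FPKM in Control, 23.1 in Sham mouse 1 and 6.20 in VSG mouse 2. Each of the Sham and VSG mice thus had a listed 0 in 1 of these 2 genes, and neither Control mouse did. The 24 members above 0 in every mouse, of which 15 are enzymes, are the basis of the per-mouse descriptions below.

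The promoters are shown first for 5 members: Mvk and Idi1, the enzymes with an unadjusted p under 0.05 in a comparison below, Cyp51 and Msmo1, which stand for the sterol-forming enzymes, and Abcg8, an export gene whose start region lies in an open-chromatin peak shared with Abcg5. Each run holds the 200 bases just upstream of a RefSeq start site (assembly GRCm38.p6), read 5′ to 3′ along the gene's strand. Placed in NCBIM37, the build of the FAIRE lists, by an exact match, they lie at chr5:114894078-114894277 (plus strand) for Mvk, chr13:8884652-8884851 (plus strand) for Idi1, chr5:4104698-4104897 (minus strand) for Cyp51, chr8:67212376-67212575 (minus strand) for Msmo1 and chr17:85082261-85082460 (plus strand) for Abcg8. Capitals mark the letters CCAAT, the core bound by the factor NF-Y, and GGGCGG, the core bound by Sp1, or their reverse complements.
Mvk: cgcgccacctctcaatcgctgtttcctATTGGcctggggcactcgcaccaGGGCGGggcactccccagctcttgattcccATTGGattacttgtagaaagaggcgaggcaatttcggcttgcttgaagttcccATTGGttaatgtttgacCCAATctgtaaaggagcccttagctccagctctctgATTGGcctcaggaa
Idi1: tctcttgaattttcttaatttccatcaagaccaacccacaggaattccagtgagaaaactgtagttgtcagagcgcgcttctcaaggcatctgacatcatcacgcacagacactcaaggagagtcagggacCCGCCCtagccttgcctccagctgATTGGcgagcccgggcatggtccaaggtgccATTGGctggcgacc
Cyp51: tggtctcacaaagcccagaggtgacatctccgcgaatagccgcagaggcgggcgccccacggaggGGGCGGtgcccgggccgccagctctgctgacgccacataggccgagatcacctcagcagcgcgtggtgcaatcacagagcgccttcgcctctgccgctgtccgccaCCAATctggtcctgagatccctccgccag
Msmo1: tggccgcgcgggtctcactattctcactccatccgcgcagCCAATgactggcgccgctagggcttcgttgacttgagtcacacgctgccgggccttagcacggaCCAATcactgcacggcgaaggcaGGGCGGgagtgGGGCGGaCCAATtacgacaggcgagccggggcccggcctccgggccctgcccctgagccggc
Abcg8: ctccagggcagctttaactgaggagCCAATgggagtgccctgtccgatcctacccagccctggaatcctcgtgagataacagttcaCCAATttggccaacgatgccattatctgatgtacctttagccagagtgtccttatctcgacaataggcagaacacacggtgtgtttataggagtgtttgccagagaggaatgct

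These letters were counted in RefSeq promoter windows of 250 bases before to 50 bases after a start site, on both strands. Windows were found for 23 members, some with more than 1 start site. Fdps, Fdft1, Sqle, Npc1 and Stard4 were not matched. CCAAT was present in a window of 21 of the 23 members, or 91.3%, against 41.1% of all 27025 genes with a window and 43.5% of the tested genes. Acat2 and Scap lacked it. GGGCGG was present in 20 of the 23, or 87.0%, against 38.2% of all genes and 68.2% of the tested genes, and it was missing in Pmvk, Abcg5 and Abcg8. Mvk carried 5 CCAAT matches in its window, Hmgcs1 and Nsdhl carried 4 each, and Msmo1, Hsd17b7, Insig2 and Mylip carried 3 each in a window. The Abcg5 and Abcg8 windows overlap, and the 1 match of Abcg5 is the same site as 1 of the 2 of Abcg8. The strict sterol regulatory element TCACNCCAC, in the form known for SREBP binding, was found in 1 member, Hmgcs1, against 1.44% of all genes. The motifs are short, and none of the 3 contains another. A match is only a description of the sequence, and the absence of these exact letters says nothing of the factor.

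The levels of the 26 members in each liver spanned a wide range, from the farnesyl diphosphate synthase gene Fdps, at 15.8 to 195 FPKM, to the ubiquitin ligase gene Mylip, at 0.337 to 2.02 FPKM.

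**Figure D1:**
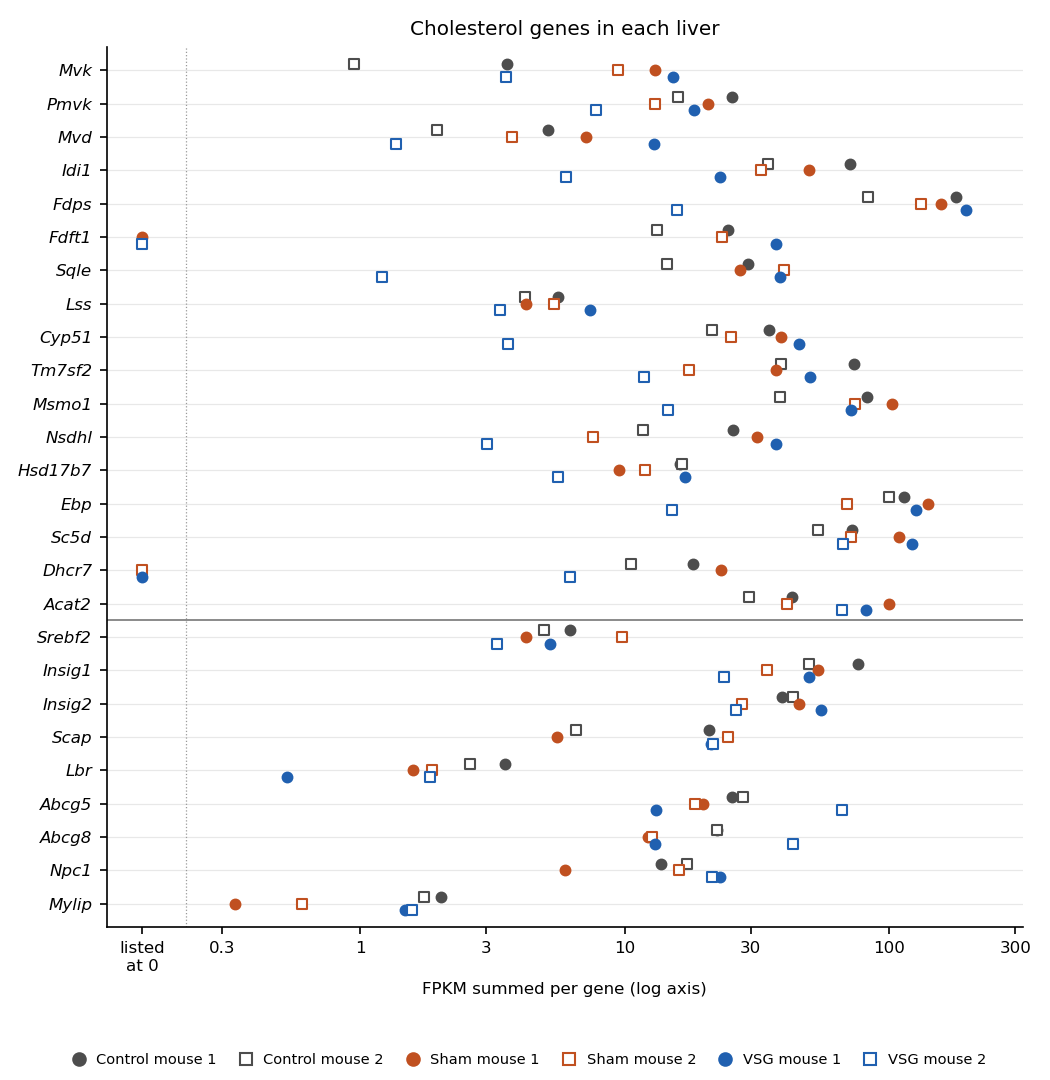
FPKM of the 26 tested members in each of the 6 livers on a log axis, with filled circles for mouse 1 and open squares for mouse 2 of each group and zeros drawn at the left edge. VSG mouse 2 (open blue squares) lies at the low end for most synthesis enzymes, above the horizontal line, and at the high end for Abcg5 and Abcg8, at 66.5 and 43.2 FPKM.

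The first steps of the pathway lead to the isoprenoid building blocks. Acat2, which makes acetoacetyl-CoA in the cytosol, was measured at 42.9 and 29.4 FPKM in Control, 100.3 and 41.0 in Sham, and 81.8 and 66.4 in VSG mice. Both VSG values lay above both Control values, while the Sham pair spanned the VSG pair. Mvk, mevalonate kinase, stood at 3.59 and 0.943 FPKM in Control, 13.0 and 9.46 in Sham, and 15.2 and 3.57 in VSG mice. Both Sham mice were above both Control mice, with no overlap, and the VSG mice straddled that gap. Pmvk, phosphomevalonate kinase, ran from 7.81 FPKM in VSG mouse 2 to 25.5 in Control mouse 1. Mvd, which turns mevalonate diphosphate into isopentenyl diphosphate, had both its lowest value, 1.37 FPKM, and its highest, 12.9, in the VSG group.

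Idi1, the isomerase that gives dimethylallyl diphosphate, had the smallest unadjusted p of the enzymes in both comparisons with VSG. It was measured at 71.3 and 35.0 FPKM in Control (53.1 ± 25.7, SD, n = 2), 49.8 and 32.9 in Sham (41.3 ± 12.0, SD, n = 2), and 22.9 and 6.01 in VSG mice (14.5 ± 11.9, SD, n = 2). Both VSG mice were thus below all other mice, and the Control and Sham mice overlapped. Fdps was measured at 179 and 83.3 FPKM in Control, 157 and 133 in Sham, and 195 and 15.8 in VSG mice. The highest and the lowest Fdps values of the 6 mice were those of VSG mice.

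In the steps from squalene to lanosterol, Sqle, squalene epoxidase and a control point of the pathway, was at 29.2 and 14.5 FPKM in Control, 27.3 and 40.1 in Sham, and 38.7 and 1.21 in VSG mice. Lss, lanosterol synthase, was lower and steadier, from 3.38 FPKM in VSG mouse 2 to 7.40 in VSG mouse 1.

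From lanosterol on, Cyp51, the lanosterol demethylase, was at 35.2 and 21.5 FPKM in Control, 39.1 and 25.3 in Sham, and 45.8 and 3.61 in VSG mice. Msmo1, the methylsterol monooxygenase that starts removal of the methyl groups at carbon 4, was at 82.4 and 38.6 FPKM in Control, 103 and 74.6 in Sham, and 71.8 and 14.6 in VSG mice. Both VSG values of Msmo1 were below both Sham values, although VSG mouse 1 lay within the Control range. Nsdhl and Hsd17b7, whose products complete that removal, ranged from 3.01 to 37.2 and from 5.59 to 16.9 FPKM, each with both extremes in the VSG group. Tm7sf2, a sterol reductase, ranged from 11.8 FPKM in VSG mouse 2 to 73.8 in Control mouse 1. Ebp, the sterol isomerase, ranged from 15.1 FPKM in VSG mouse 2 to 140 in Sham mouse 1. Sc5d, the sterol desaturase, was the steadiest of the more abundant enzymes, from 53.8 FPKM in Control mouse 2 to 122 in VSG mouse 1.

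Among the regulators, Srebf2 itself stayed between 3.28 FPKM in VSG mouse 2 and 9.81 in Sham mouse 2. Insig1, a sterol sensor partner that is itself a target of SREBP-2, was at 76.3 and 49.7 FPKM in Control, 54.0 and 34.7 in Sham, and 49.7 and 23.7 in VSG mice. Both VSG values lay below both Control values, by a narrow margin for VSG mouse 1. Insig2 ranged from 26.4 to 55.5 FPKM, with both extremes in VSG mice. Scap was at 20.8 and 6.53 FPKM in Control, 5.53 and 24.5 in Sham, and 21.2 and 21.5 in VSG mice, so the 2 mice of Control and of Sham lay far apart. One of its 2 transcripts was listed at 0 in Control mouse 2 and the other in Sham mouse 1, and with the highest transcript alone the fitted change in Sham against Control was 1.48 in place of 0.01.

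Abcg5 and Abcg8 encode the partners of the heterodimeric transporter that secretes sterol into bile. Abcg5 was measured at 25.4 and 28.1 FPKM in Control, 19.8 and 18.5 in Sham, and 13.2 and 66.5 in VSG mice. Abcg8 was measured at 22.3 and 22.4 FPKM in Control, 12.3 and 12.7 in Sham, and 13.1 and 43.2 in VSG mice. For both genes the Sham pair was below the Control pair, and the VSG group held VSG mouse 2 as the highest of the 6 mice beside VSG mouse 1 near or below the Sham level. Of the 3 Abcg8 transcripts summed here, 1 was listed at 0 in Sham mouse 1 and another in Sham mouse 2 and VSG mouse 2, and with the highest transcript alone the fitted change in Sham against Control was -0.55 in place of -0.79. Npc1, which moves cholesterol out of lysosomes, was at 13.7 and 17.3 FPKM in Control, 5.93 and 16.1 in Sham, and 22.9 and 21.3 in VSG mice. Both VSG mice were the highest of the 6 for Npc1. Mylip, also called Idol, a ubiquitin ligase that sends lipoprotein receptors to degradation and is a target of the liver X receptors, was at 2.02 and 1.74 FPKM in Control, 0.337 and 0.603 in Sham, and 1.47 and 1.57 in VSG mice. The 3 pairs of Mylip did not overlap, with Sham lowest, but all values were close to the filter. Lbr, the lamin B receptor, whose product is also a sterol reductase, was at 3.53 and 2.60 FPKM in Control, 1.59 and 1.86 in Sham, and 0.528 and 1.84 in VSG mice.

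The effect of the diet with a mock operation was asked by comparing Sham with Control. In limma on log2(FPKM + 1), none of the 26 members passed an adjusted p of 0.1, where 0.284% of the 9869 genes tested did. At an unadjusted p under 0.05 there were 2 members, Mvk and Mylip, against 10.9% of all genes. Mvk was higher in Sham by 2.02 on the log2(FPKM + 1) scale (SE 0.74, limma adjusted p = 0.430, higher in 2 of 2 Sham mice). Mylip differed by -0.98 (SE 0.24, limma adjusted p = 0.325, lower in 2 of 2 Sham mice). Both Sham mice were higher than both Control mice for 1 member, Mvk, where this held for 25.4% of all genes. Both were lower for 6 members (Tm7sf2, Hsd17b7, Lbr, Abcg5, Abcg8 and Mylip), where this held for 20.4% of all genes. The median fitted change of the 17 tested enzymes was -0.02, that of the 9 other members -0.50, and that of all genes 0.04.

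The effect of the sleeve operation on the same diet was asked by comparing VSG with Sham, which uses the same Sham mice. None of the 26 members passed the adjusted p of 0.1 in limma, against 0.0507% of all genes, and 1 member, Mylip, had an unadjusted p under 0.05, against 4.85% of all genes. Mylip differed by 0.78 (SE 0.24, limma adjusted p = 0.944). Idi1 differed by -1.68 (SE 0.69), Msmo1 by -1.39 (SE 0.82) and Npc1 by 1.09 (SE 0.46), each with a limma adjusted p = 0.944. The largest fitted difference, that of Sqle at -1.86, had an SE of 1.38 and was 0.22 without VSG mouse 2. Without that mouse Idi1 was at -0.79 and Msmo1 at -0.28, and without VSG mouse 1 they were at -2.56 and -2.50. Npc1 was at 0.43 without Sham mouse 1 and 1.74 without Sham mouse 2. Both VSG mice were higher than both Sham mice for 3 members (Abcg8, Npc1 and Mylip), where this held for 18.5% of all genes. For Abcg8 this held for the summed transcripts only. Its highest transcript was at 5.88 FPKM in VSG mouse 1 and 6.51 in Sham mouse 1. Both were lower for 2 members (Idi1 and Msmo1), where this held for 9.78% of all genes. The enzymes had a median of -0.44, with 13 of 17 below 0, the other members 0.62, and all genes 0.08. Without VSG mouse 2 the enzymes' median was 0.43, and without VSG mouse 1 it was -1.40, so a single mouse set its sign.

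VSG was also compared with Control, sharing samples with both comparisons above. None of the 26 members passed in limma, against 0.284% of all genes, and Idi1 alone had an unadjusted p under 0.05, against 9.56% of all genes. Idi1 differed by -1.98 (SE 0.69, limma adjusted p = 0.491, lower in 2 of 2 VSG mice), and by -1.09 without VSG mouse 2 and -2.86 without VSG mouse 1. Both VSG mice were higher for 3 members (Acat2, Scap and Npc1), against 33.7% of all genes, and both were lower for 5 (Idi1, Dhcr7, Insig1, Lbr and Mylip), against 14.8% of all genes. One of the Dhcr7 values behind that count is a listed 0, and for Scap, where a transcript was listed at 0 in Control mouse 2, the fitted change was 2.08 with the highest transcript alone in place of 0.80. The enzymes had a median of -0.77 and the other members -0.10, beside 0.13 for all genes. That median turned to 0.67 without VSG mouse 2 and was -1.88 without VSG mouse 1. With 2 mice per group an exact permutation test cannot go below p = 0.333, and a p that misses the threshold does not show that the groups are alike.

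**Figure D2:**
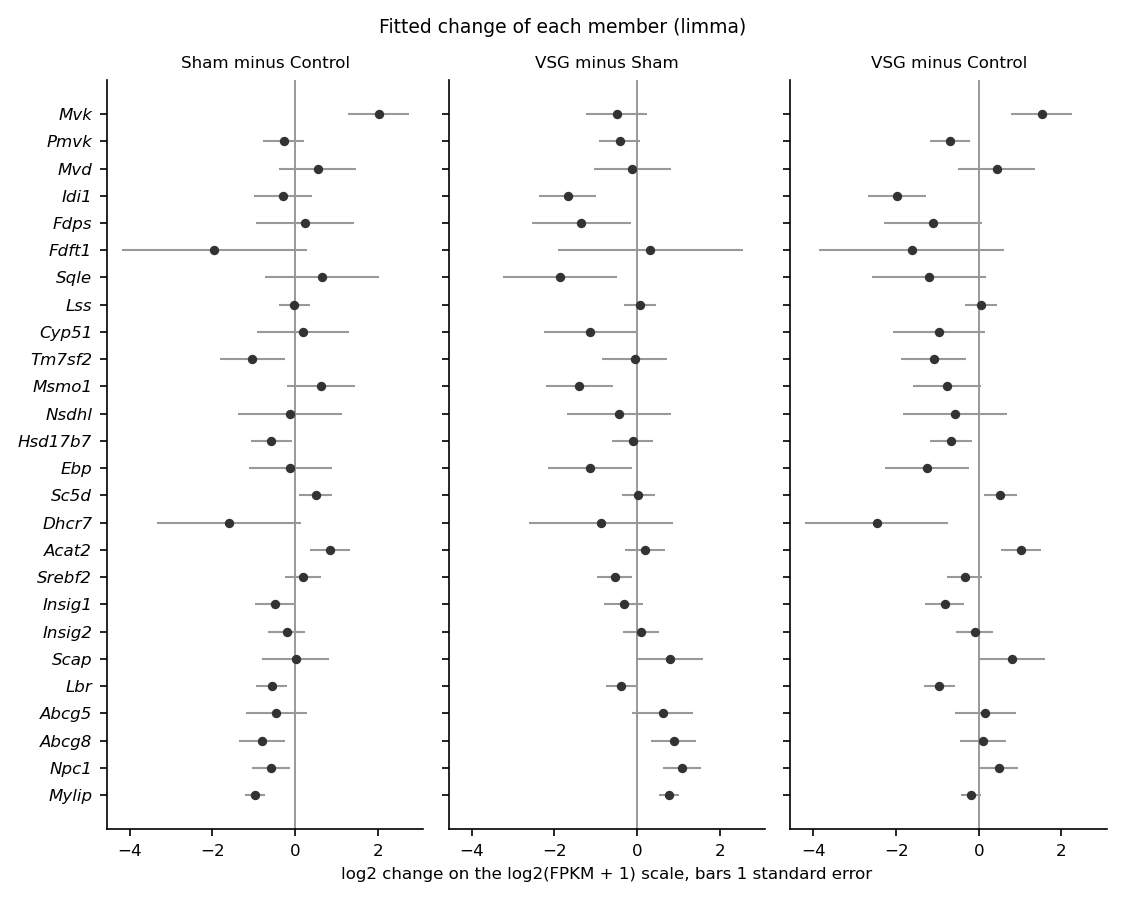
Fitted log2 change of the 26 tested members in the 3 comparisons, on the log2(FPKM + 1) scale, with bars of 1 standard error from limma. Most bars in the comparison of VSG with Sham reach or cross 0, and Idi1 and Mylip, at -1.68 and 0.78, are among those that do not.

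On the log2(FPKM + 1) scale, the 15 enzymes above 0 in every mouse differed between the 2 VSG mice by a median of -2.0, as mouse 2 minus mouse 1, beside median fitted changes of the same 15 of 0.19 in Sham against Control, -0.44 in VSG against Sham and -0.70 in VSG against Control. VSG mouse 2 was singled out after its values were seen. Over the 15 enzymes above 0 in every mouse, the summed level was 782 and 466 FPKM in Control, 849 and 557 in Sham, and 862 and 226 in VSG mice. VSG mouse 1 thus had the highest and VSG mouse 2 the lowest sum of the 6. VSG mouse 2 was at least 2-fold below VSG mouse 1 for 13 of the 15 enzymes, all but Sc5d and Acat2, where 5.64% of the 8293 genes above 0 in every mouse were. The median ratio of VSG mouse 1 to VSG mouse 2 was 4.25-fold for the enzymes and 0.982-fold for all genes. The ratio reached 31.9-fold for Sqle, 12.7-fold for Cyp51, 12.4-fold for both Nsdhl and Fdps, 9.43-fold for Mvd and 8.35-fold for Ebp. Sqle and Mvd were close to the filter in VSG mouse 2, at 1.21 and 1.37 FPKM. For Fdps, 1 transcript was listed at 0 in VSG mouse 2, and the other was at 172 FPKM in VSG mouse 1 and 15.8 in VSG mouse 2.

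Of the 15 enzymes, 12 had their lowest value of the 6 mice in VSG mouse 2, where 9.09% of all genes did. The exceptions were Mvk, Sc5d and Acat2, which were lowest in Control mouse 2. Srebf2, Insig1 and Insig2 were also lowest in VSG mouse 2, and Insig1 and Insig2 were 2.10-fold and 2.11-fold below VSG mouse 1. In the other direction, 3 of 24 members were at least 2-fold higher in VSG mouse 2 than in VSG mouse 1, a share near the 10.9% of all genes. They were Abcg5 by 5.05-fold, Lbr by 3.49-fold and Abcg8 by 3.30-fold. The Lbr values, 0.528 and 1.84 FPKM, were close to the filter. Abcg5 and Abcg8 were also the 2 of 24 members with their highest value in VSG mouse 2, a smaller share than the 23.4% of all genes. With 1 mouse on each side this is a difference between 2 libraries and has no replicate check.

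In the other groups the enzymes' median difference was smaller and of the same direction. Control mouse 2 was at least 2-fold below Control mouse 1 for 7 of the 15 enzymes (Mvk, Mvd, Idi1, Fdps, Sqle, Msmo1 and Nsdhl), where 4.06% of all genes were, and the median ratio was 1.90-fold. Sham mouse 2 was at least 2-fold below Sham mouse 1 for 4 enzymes (Tm7sf2, Nsdhl, Ebp and Acat2), where 11.2% of all genes were, and the median ratio was 1.51-fold. The enzyme sets that differed between mice were therefore not the same list in each group, with Nsdhl in all 3. Some enzymes went the other way. The ratio of Sham mouse 1 to Sham mouse 2 was 0.679-fold for Sqle, 0.788-fold for Lss and 0.799-fold for Hsd17b7. Hsd17b7 was at 0.988-fold in Control. Acat2 differed more in Sham, at 2.45-fold, than in VSG, at 1.23-fold.

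**Figure D3:**
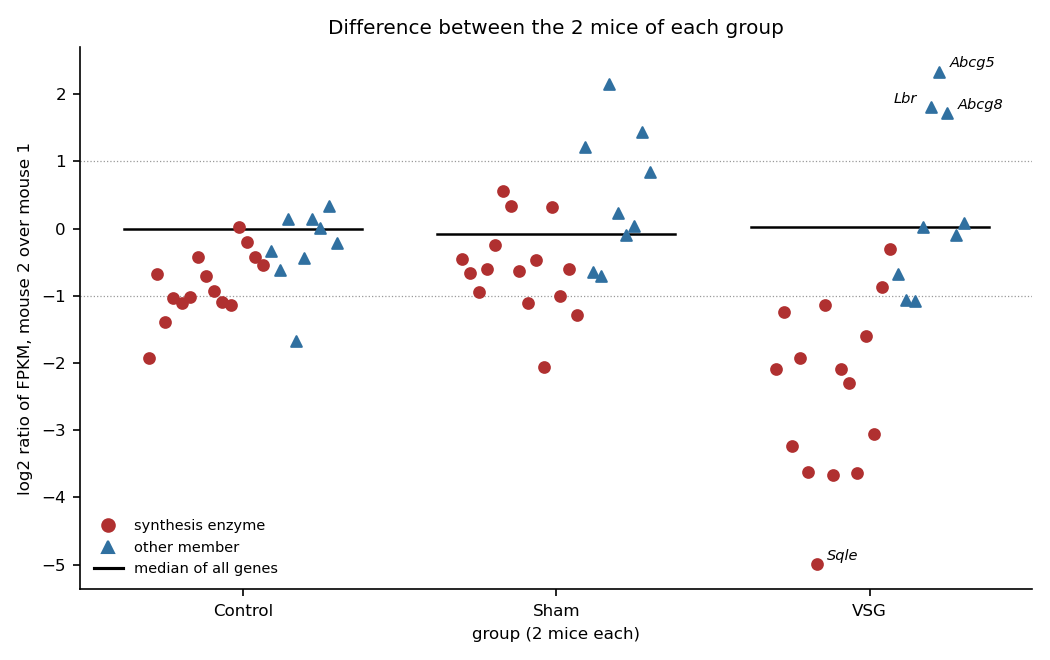
Log2 ratio of FPKM, mouse 2 over mouse 1 of the same group, for the 15 enzymes (circles) and 9 other members (triangles) above 0 in every mouse, with a black line at the median of all 8293 genes and dotted lines at a 2-fold difference. In the VSG group 13 of 15 enzymes lie below the lower dotted line, while Abcg5, Abcg8 and Lbr lie above the upper one.

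Other lists moved with VSG mouse 2. The Kupffer cell markers summed to 3.27-fold more in VSG mouse 2 than in VSG mouse 1, with 9 of 11 highest of the 6 mice in VSG mouse 2, where 23.4% of all genes were, and none listed at 0 in any mouse. Their part in the enzymes' difference was not tested. The hepatocyte markers summed to 31571 FPKM in VSG mouse 1 and 28925 in VSG mouse 2, sums that are mostly Apoa1 and Apoa2. Marker by marker, over the 6 above 0 in every mouse, the median ratio of VSG mouse 1 to VSG mouse 2 was 0.851-fold, from 0.591 to 1.70, beside the 4.25-fold median of the enzymes. The cholangiocyte list summed to 145 FPKM in VSG mouse 1 and 30.9 in VSG mouse 2, but Spp1, which other liver cells also express, made up 89.7% to 98.6% of its sum, and 2 of its 6 markers passed the filter. Of the 7 stellate cell markers, of which 4 passed the filter, 5 were highest of the 6 mice in VSG mouse 2, again against 23.4% of all genes.

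The likeness of each member to the rest of the enzymes was described by Pearson's r of its log2 level with the mean of the other enzymes over the 6 mice, which all share VSG mouse 2 as the extreme point. It was highest for Cyp51, at 0.98, and Fdps, at 0.97, and lowest among the enzymes for Acat2, at 0.17. Abcg5 and Abcg8 were at -0.92 and -0.85, and Insig1 at 0.81. Among 4935 other genes with a mean of at least 5 FPKM, the 5 most like the enzymes were Cdc42se1 (0.99), Tprgl (0.97), Arf4 (0.97), Rbmxl1 (0.97) and Pop5 (0.96). Arf4, for example, ran from 45.0 FPKM in VSG mouse 2 to 85.2 in VSG mouse 1, a much narrower range than that of Cyp51.

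Related genes were taken from lists, and those named for an unadjusted p were chosen after their values were seen. In 6 related lists, 0 genes passed an adjusted p of 0.1 in limma in any comparison. Over all genes, an unadjusted p under 0.05 was reached by 10.9% in Sham against Control, 4.85% in VSG against Sham and 9.56% in VSG against Control. Of the 10 genes of SREBP processing and sterol-regulated degradation, Erlin1, part of the complex that guides sterol-regulated degradation, had an unadjusted p under 0.05 in Sham against Control, at 0.94 (SE 0.24), and in VSG against Control, at 0.66 (SE 0.24). The most abundant of this list, Aup1, stayed between 53.4 and 99.5 FPKM. Of the 9 tested genes of the isoprenoid branch, which draws on the same precursors for coenzyme Q, dolichol and protein prenylation, Coq2 had an unadjusted p under 0.05, at -0.58 (SE 0.22) in Sham against Control and 0.81 (SE 0.22) in VSG against Sham. Fnta, a prenyltransferase subunit, was steady at 13.3 to 16.4 FPKM. Rabggta and Pggt1b, also under 0.05 in at least 1 comparison, were listed at 0 in 4 and 3 mice. None of the 14 tested genes of cholesterol handling and of the 5 of the liver X receptor pathway had an unadjusted p under 0.05. Their most abundant members were Lcat, which esterifies cholesterol in plasma, at 324 to 713 FPKM, with Tmem97, a sterol-regulated membrane protein, at 47.8 to 108 FPKM, and, in the receptor pathway, Lpcat3, at 37.3 to 50.3 FPKM, with the receptor gene Nr1h3 at 16.6 to 63.8 FPKM. Tmem97 was at 101 FPKM in VSG mouse 1 and 47.9 in VSG mouse 2. Of the 17 listed genes of cholesterol handling, tested or not, 6 were highest of the 6 mice in VSG mouse 2 and 0 were lowest there. Over the 8293 genes above 0 in every mouse these shares were 23.4% and 9.09%, so the counts are not on quite the same footing.

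Of 12 genes of bile acid synthesis, the main route by which cholesterol is broken down, Cyp7a1, its rate-limiting enzyme, was at 2.28 and 2.60 FPKM in Control, at 4.58 in Sham mouse 2 and listed at 0 in Sham mouse 1, and at 68.3 and 13.2 in VSG mice. The difference between VSG and Sham was 3.73 (SE 1.09, limma adjusted p = 0.944). In VSG against Control, Cyp7a1 differed by 3.19 (SE 1.09) and Hsd3b7 by 1.32 (SE 0.33), the 2 of the 12 genes with an unadjusted p under 0.05 there. In Sham against Control 3 of the 12 were under it, namely Cyp27a1, at -1.04 (SE 0.29), Slc27a5, at -1.16 (SE 0.36), and Hsd3b7, at 1.15 (SE 0.33). The most abundant of the list, Scp2 and Slc27a5, ran from 790 to 1818 and from 121 to 342 FPKM. The fatty acid arm of SREBP, which is driven mainly by SREBP-1c, had a median change of -1.04 in Sham against Control over 11 tested genes. In that comparison 5 of the 11 had an unadjusted p under 0.05, all lower in Sham: Acacb, Elovl6, Scd1, Me1 and Fads1, where 10.9% of all genes were under it in either direction. In VSG against Control 3 of the 11 were, all lower, against 9.56% of all genes, with a median of -0.52. In VSG against Sham 0 of the 11 were, against 4.85% of all genes, with 10 of 11 above 0 and a median of 0.51. Scd1, stearoyl-CoA desaturase, was at 1123 and 308 FPKM in Control, 27.7 and 4.32 in Sham, and 74.1 and 5.12 in VSG mice. Thrsp, a lipogenic factor, ran from 5.56 FPKM in Sham mouse 2 to 216 in Control mouse 1. In Sham against Control the cholesterol enzymes had the median of -0.02 given above, and the difference between the lists was not tested.

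Open chromatin at the start sites was read from the 3 peak lists in NCBIM37 coordinates. A peak lay within 1000 bp of a start site for all 27 members placed in the annotation, in each of the 3 lists. Among the tested genes this held for 90.0% in the Control list, 89.6% in the Sham list and 91.0% in the VSG list, and for 87.5% in all 3 lists at once. Hmgcs1 could not be placed, and peaks near it were not analysed here. Stard4 had a start-site peak among the top 0.460% of the Control list, 1.93% of the Sham list and 1.71% of the VSG list, although its transcript was listed at 0.

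The peaks were compared only by their rank in signal within a list, since each list is 1 combined set. A peak among the top 10% of its list lay at the start site of 17 members in the Control list, 17 in the Sham list and 18 in the VSG list, or 63.0%, 63.0% and 66.7% of the 27, against 35.2%, 36.1% and 39.4% of the tested genes. The median rank from the top was 7.13%, 7.39% and 6.77% for the members, against 13.9%, 14.4% and 12.3% for the tested genes with a peak. Hsd17b7 had the highest rank of the members in the Control and VSG lists, in the top 0.318%, 1.01% and 0.442%, and Mvd had it in the Sham list, in the top 1.69%, 0.743% and 1.12%. Pmvk, at 62.2%, 54.5% and 79.3%, and Mylip, at 49.3%, 50.2% and 36.6%, had the lowest.

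Idi1 ranked at 7.13% in the Control list, 3.33% in the Sham list and 7.11% in the VSG list, and Cyp51 at 8.63%, 19.7% and 10.7%. Abcg5 and Abcg8 are transcribed away from each other, and their start sites share 1 peak. It spanned chr17:85081912-85082983 in the Control list, chr17:85081958-85083050 in the Sham list and chr17:85082000-85083050 in the VSG list, and it holds the Abcg8 sequence printed above. The shared peak ranked at 27.1% in the Control list, 7.39% in the Sham list and 22.9% in the VSG list. The lists differ in length, with 42204, 52881 and 44539 peaks, and as a percent of the shortest list the same ranks were 27.1%, 9.26% and 24.2%. The lists give no value per mouse, so none of these differences in rank could be tested, and no list separates VSG mouse 1 from VSG mouse 2.

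**Figure D4:**
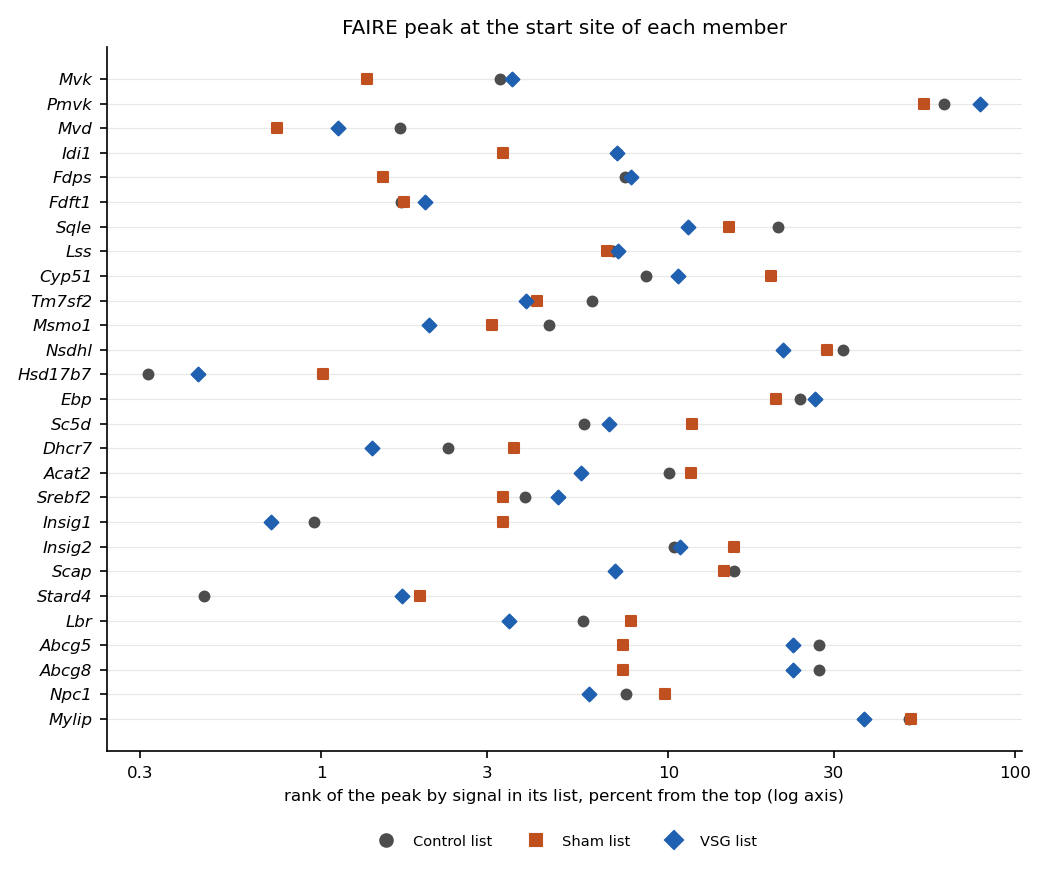
Rank by signal of the FAIRE peak at the start site of each of the 27 placed members, as a percent from the top of the Control, Sham and VSG lists on a log axis (left is stronger). The lists hold 42204, 52881 and 44539 peaks, so a percent is taken of different totals. Most members lie toward the left, and Pmvk and Mylip lie at the right.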

How the data were processed

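Livers of 2 mice per group were profiled by RNA-seq and FAIRE-seq on an Illumina HiSeq. Per the labels the RNA was poly(A)-enriched, while the study's methods describe depletion of ribosomal RNA, and the values do not settle which was done. The authors deposited FPKM per RefSeq transcript and mouse, made with TopHat2 and Cufflinks on mm9, and FAIRE peak lists from F-seq with a signal value for each peak, in which the 2 mice of a group are combined. Lists of differential genes and sites were deposited too. They hold the authors' own fold changes and p-values or positions and were not used.

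Of 34933 transcripts, 34042 matched a RefSeq gene (GRCm38.p6 accessions), and FPKM was summed per gene. Genes with at least 1 FPKM in at least 2 mice were tested with limma 3.58.1 in R 4.3.3, on log2(FPKM + 1) with all 6 mice in 1 fit and a trend in the variance. Tests were two-sided, and p-values were adjusted by Benjamini-Hochberg over all 9869 genes, with a threshold of 0.1. The code was tested on simulated data. The study tested counts, which were not used here, so depth is known only in relative terms. The labels do not say that the mice are from separate cages or litters, so p-values measure only the spread between these mice. All members were named, and from each related list up to 2 of the most abundant genes, since none passed the test. The members and lists were chosen with earlier results of these data known. Some genes of the pathway are not reported here. Markers of hepatocytes and of Kupffer, sinusoidal endothelial, stellate, cholangiocyte and neutrophil cells were read as summed FPKM. FAIRE peaks were assigned to GENCODE M1 start sites of protein-coding transcripts within 1000 bp. Promoter motifs were searched by exact letters with Python 3.11.15. Alternatives were the pseudocount, the filter, the scaling, the variance trend, the mice in the fit, the replicate block, the choice of transcript and leaving out each mouse.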

Additional observations from a re-analysis of the deposited data

How the results depend on the processing

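None of the 26 members passed the adjusted p of 0.1 in limma in any of the 3 comparisons, nor did any member tested under the 17 alternatives. The alternative filter of at least 5 FPKM left Lbr and Mylip untested. Leaving out each mouse in turn, the enzymes' median change ran from -0.21 to 0.41 in Sham against Control, from -1.40 (without VSG mouse 1) to 0.43 (without VSG mouse 2) in VSG against Sham, and from -1.88 to 0.67 in VSG against Control (the same 2 mice). Where a group is left with 1 mouse, that mouse is assumed to vary like the others. Centring on the median, since all genes shifted by 0.13 in VSG against Control, gave medians of -0.56 in VSG against Sham and -0.89 in VSG against Control. Of 1320 member changes under alternatives, 89 moved by more than the spread between mice, 80 of them when a mouse was left out. The genes called in all varied among the alternatives that kept both mice of each compared group. They ran from 7 to 64 (28 as reported), from 0 to 8 (5) and from 1 to 41 (28) in the 3 comparisons. The number of calls thus depended on the processing, and it also changed when a mouse was left out. Over all tested genes, deviations of same-numbered mice correlated at 0.118, 0.064 and 0.039, so the numbers were not taken to pair mice. The enzymes' median was lower in mouse 2 of each group, and a correlation over all genes cannot decide whether the enzymes share a pairing. A fit with the replicate block called 9, 0 and 10 genes in all and 0 members, left the enzymes' medians at -0.02, -0.44 and -0.77, and lost both calls of Tat, the hepatocyte marker that passed the test, at adjusted p = 0.154 and 0.234 in limma. No other call of a named gene was there to lose. Treating zeros as missing, chosen after seeing the data, gave medians of 0.24, -0.44 and -0.70. The count of 13 enzymes at least 2-fold lower in VSG mouse 2 was 13 with the highest transcript, 13 after quantile normalization and 12 on the log2(FPKM + 1) scale, all chosen after seeing the data. Members with a start-site peak numbered 27 in windows of 500 and 5000 bp and with equal numbers of peaks, and 26, 25 and 26 with the top 50% of peaks.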

Other observations

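Sinusoidal endothelial markers summed to 39.3 and 14.7 FPKM in Control, 6.18 and 4.92 in Sham, and 24.9 and 21.8 in VSG mice, so the Sham pair lay below the other 4 mice. Clec4g made up 29.6% to 79.7% of that sum, and 2 of the 7 markers were above 0 in every mouse. Neutrophil markers summed to 12.4 and 4.91 FPKM in Control, 41.6 and 45.3 in Sham, and 21.8 and 16.4 in VSG mice, so the Sham pair lay above the other 4, and S100a8 and S100a9 made up 94.5% or more of it. Stellate cell markers summed to 49.7 and 48.5 FPKM in Control, 19.5 and 32.5 in Sham, and 49.9 and 60.8 in VSG mice, with Dcn, which fibroblasts also express, at 71.2% to 87.7% of the sum and 4 of 7 markers tested. None of these lists had a gene that passed the adjusted p of 0.1 in limma. Among the hepatocyte markers, Tat, a tyrosine-degrading enzyme, passed it in Sham against Control, at -2.84 (SE 0.24, limma adjusted p = 0.0445), and in VSG against Control, at -2.47 (SE 0.24, limma adjusted p = 0.0679). It kept its direction under all 17 alternatives and missed the threshold in 6 and 7 of them, among them leaving out either Control mouse or either VSG mouse, with adjusted p from 0.0342 to 0.484 and from 0.0533 to 0.564 in limma.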
